A study of Homo sapiens with 14 samples.

Results

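The genes described here are 9 transcripts linked to growth arrest and stress: GADD45A, GADD45B, GADD45G, BTG1, BTG2, ATF4, DDIT3, SESN2 and DDIT4. They were listed by name, and all 9 were measured, each by 1 probe, among the 14547 named genes of the arrays. They were followed in LNCaP, an established androgen-responsive line from a human prostate cancer metastasis, across every comparison of the study. After steroid deprivation, cells received 1 nM R1881 (a synthetic androgen), 25 µg/ml cycloheximide (CHX, an inhibitor of protein synthesis) or CHX and R1881 added together, each for 24 h. Control cells were deprived of steroids for 48 h in the same way and received neither agent. Each treatment was set against control on 4 two-colour arrays, from 2 biological experiments and with a dye swap for each experiment. A further 2 arrays, from experiment 1, set CHX plus R1881 directly against CHX.

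GADD45 proteins are small proteins without known catalytic activity that bind cell-cycle and repair factors, such as CDK1, p21 and PCNA, and the kinase MAP3K4 upstream of p38 and JNK. BTG1 and BTG2 are antiproliferative proteins that recruit the CCR4-NOT deadenylase, which shortens the poly(A) tails of messenger RNAs. In the integrated stress response, phosphorylation of eIF2α lowers general translation while translation of the transcription factor ATF4 increases, and ATF4 induces DDIT3 (CHOP), SESN2 and DDIT4. SESN2 (sestrin 2) and DDIT4 (REDD1) both restrain mTORC1, the kinase complex that promotes growth, the sestrin through the GATOR complexes and REDD1 through TSC2. Many transcripts of these families are short-lived and respond quickly to stress, glucocorticoids or low oxygen. CHX stalls ribosomes on messenger RNAs and is widely used to ask which transcripts change without newly made protein.

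A value is the log2 ratio of the first-named RNA to the second, so a value of 1 is a doubling. The sign was set from androgen-induced genes, which makes every direction likely and not certain: of 22 measured genes of that list, 19 lay below 0 as deposited in R1881 versus control (median −0.24), and all values were therefore multiplied by −1. After this turn TMPRSS2, an androgen-induced protease gene, rose by 1.65 with R1881 (limma adjusted p = 0.0202), and the prostate-specific antigen gene KLK3 had 0.98 (adjusted p = 0.126). Both genes belong to the list that set the sign, so their direction is no separate check of it. The ratios hold no absolute level, so markers of cell identity could not be read from them. The spread over probes of 1 array was 0.182 to 0.254 (SD) with R1881 against control, 0.571 to 0.617 when CHX or CHX plus R1881 was set against control, and 0.135 and 0.201 for the direct hybridisations. The dye orientations of an experiment correlated across probes at r = 0.788 to 0.893 in the comparisons of CHX or CHX plus R1881 with control, at 0.134 and 0.216 for R1881 and at −0.0427 on the direct arrays. In bulk RNA, a transcript present in fewer cells and less of it per cell cannot be told apart.

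The promoter bases upstream of the start site are shown for the member that fell under CHX and for members that rose. ATF, hypoxia and basal motifs can lie in this region, though also outside it. RefSeq's promoter table (GRCh38.p14) held 8 of the 9 members. The 250 bases before the start are printed 5′ to 3′ on the gene's strand, and capitals mark matches, on either strand, to 6 motifs. They are the basal element TATAAA, the CCAAT box, the core of the hypoxia response element (ACGTG, which also lies in some E-boxes), the composite site of C/EBP and ATF factors (TGATGNAA), the AP-1 site (TGANTCA) and the cyclic AMP response element (TGACGTCA). Overlapping matches share their capitals. ATF4 has more than 1 listed start, and the first by genomic position is shown. DDIT3, which is not printed, also has more than 1, and its motifs were read from the first by position.
DDIT4 (chr10:72273674-72273923, + strand): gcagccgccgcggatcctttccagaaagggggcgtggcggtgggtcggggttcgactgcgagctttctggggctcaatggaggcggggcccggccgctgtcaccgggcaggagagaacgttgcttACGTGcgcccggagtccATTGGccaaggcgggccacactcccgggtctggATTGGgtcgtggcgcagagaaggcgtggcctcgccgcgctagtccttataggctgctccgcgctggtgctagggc
GADD45B (chr19:2475877-2476126, + strand): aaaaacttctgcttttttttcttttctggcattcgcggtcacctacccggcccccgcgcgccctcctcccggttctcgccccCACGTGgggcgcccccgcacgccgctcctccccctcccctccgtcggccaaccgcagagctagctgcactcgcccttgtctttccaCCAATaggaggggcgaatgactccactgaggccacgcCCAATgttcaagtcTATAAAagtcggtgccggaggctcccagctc
GADD45G (chr9:89604762-89605011, + strand): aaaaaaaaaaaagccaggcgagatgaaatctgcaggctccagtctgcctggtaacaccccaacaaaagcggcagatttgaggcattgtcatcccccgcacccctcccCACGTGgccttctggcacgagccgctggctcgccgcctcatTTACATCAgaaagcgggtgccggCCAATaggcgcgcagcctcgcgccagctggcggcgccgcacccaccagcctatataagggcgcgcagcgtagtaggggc
ATF4 (chr22:39520309-39520558, + strand): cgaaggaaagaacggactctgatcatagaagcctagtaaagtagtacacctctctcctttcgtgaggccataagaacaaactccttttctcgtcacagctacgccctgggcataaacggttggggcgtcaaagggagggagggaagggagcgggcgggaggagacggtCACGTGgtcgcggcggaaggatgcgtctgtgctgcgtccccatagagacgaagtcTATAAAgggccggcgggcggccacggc

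DDIT4 shared ACGTG and CCAAT with members that rose. ACGTG stood in 4 of the 8 promoters, those of GADD45B, GADD45G, ATF4 and DDIT4, against 18.5% of 35116 promoters of the same length. CCAAT stood in 7 of the 8, all but ATF4, against 32%. TATAAA was read in GADD45B, BTG1 and ATF4 (10.7% of all promoters), TGATGNAA in GADD45G (3.14%), TGANTCA in DDIT3 (6.57%) and TGACGTCA in 0 of the 8 (1.65%). The members' GC content ran from 56.4% (BTG1) to 74.8% (BTG2), with 68.8% for DDIT4, around a median of 58.0% over all promoters. These matches describe letters in a window of 250 bases and say nothing of binding. A motif not read here, such as TGATGNAA in DDIT3, may still lie outside the window.

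CHX versus control asked which transcripts change when protein synthesis is inhibited. With CHX, 7 of the 9 transcripts rose (GADD45A, GADD45B, GADD45G, BTG1, BTG2, ATF4 and DDIT3), DDIT4 fell, and SESN2 did not pass in the fit without a block for the experiment. The background was wide: 38% of all 14547 genes passed the same test with CHX, 20.5% higher and 17.4% lower (limma, Benjamini-Hochberg adjusted p under 0.05 over all genes). The median of the 9 members was 1.18, beside 0.0021 over all genes. In the plot of the 8 arrays that set CHX or CHX plus R1881 against control, 8 members lie above 0 on every array and DDIT4 lies lowest on every array.

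**Figure D1:**
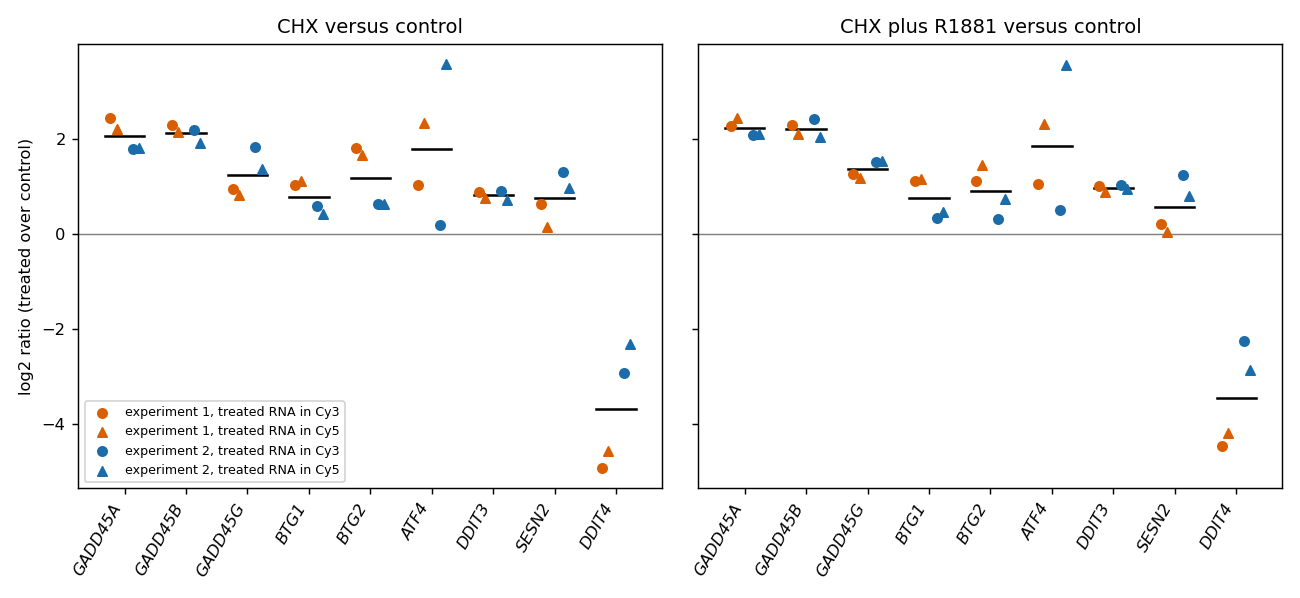
Log2 ratio (vertical axis) of each of the 9 transcripts on the 4 arrays of CHX over control and the 4 arrays of CHX plus R1881 over control. Points are arrays, marked by experiment and by the dye of the treated RNA, and bars are means over the 2 experiments. DDIT4 lies between −4.93 and −2.26 while the other 8 transcripts lie above 0, and the ATF4 points spread most between dyes.

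All 3 GADD45 genes rose, and GADD45B and GADD45A had the highest means of the 9 transcripts, while GADD45G lay below ATF4. GADD45A, a p53 target that inhibits CDK1 and takes part in DNA repair, had 2.43 and 2.21 in experiment 1 and 1.78 and 1.80 in experiment 2 (treated RNA in Cy3, then in Cy5). Its mean was 2.06 ± 0.37 (SD, n = 2 experiments here and below), 4.16-fold above control, with an adjusted p of 0.000361. All 4 arrays lay far above 0, with both arrays of experiment 1 above both of experiment 2. GADD45B, which NF-κB and TGF-β signalling induce, had 2.29 and 2.13 in experiment 1 and 2.17 and 1.91 in experiment 2. It averaged 2.13 ± 0.12, a 4.37-fold rise (adjusted p = 0.000113). GADD45G, which cytokines induce and which also binds CDK1, had 0.93 and 0.81 in experiment 1 and 1.83 and 1.36 in experiment 2. It rose by 1.23 ± 0.51, or 2.35-fold (adjusted p = 0.00377), with both arrays of experiment 2 above both arrays of experiment 1. Among all genes GADD45A ranked 85 from the highest in experiment 1 and 149 in experiment 2, GADD45B ranked 102 and 89, and GADD45G ranked 1193 and 231.

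BTG1 and BTG2 rose with a wide spread between experiments. BTG2, an immediate-early p53 target, had 1.80 and 1.66 in experiment 1 and 0.62 and 0.62 in experiment 2. Its mean was 1.18 ± 0.78, 2.26-fold above control (adjusted p = 0.0250). BTG1, a close relative first found at a translocation in B-cell leukaemia, had 1.03 and 1.10 in experiment 1 and 0.58 and 0.41 in experiment 2. It averaged 0.78 ± 0.40, or 1.72-fold (adjusted p = 0.0306). For both genes experiment 1 gave the higher values and the dye orientations of an experiment lay close together. Neither gene passed without experiment 1 of CHX, at 0.62 with an adjusted p of 0.162 for BTG2 and 0.49 with 0.233 for BTG1. Neither passed without an R1881 experiment either, where the value stays and only the pooled spread changes (adjusted p = 0.0588 for BTG2 and 0.0684 for BTG1).

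Of the stress-response members, ATF4 rose by 1.77 ± 0.14 (3.42-fold, adjusted p = 0.000323), but its arrays split by dye. It had 1.03 and 0.18 with the treated RNA in Cy3, in experiments 1 and 2, and 2.32 and 3.56 with the treated RNA in Cy5. The difference between dyes was 2.34, and 0.0137% of all genes had a larger one with CHX, where the median over genes was 0.11. ATF4 showed the same order with CHX plus R1881 (a difference of 2.15) and with R1881 (0.52). The mean weights the orientations equally, and all 4 arrays lay above 0. A fit to all 4 arrays, in which the dye difference enters the spread, still called ATF4 (adjusted p = 0.0396). Read from the Cy3 orientation by itself, its value of 0.61 did not pass (adjusted p = 0.0827). DDIT3, the pro-apoptotic factor CHOP downstream of ATF4, was the steadiest member. Its 4 arrays had 0.88 and 0.76 in experiment 1 and 0.90 and 0.71 in experiment 2, a mean of 0.81 ± 0.01 or 1.76-fold (adjusted p = 0.000294). SESN2, a leucine-sensing mTORC1 inhibitor, had 0.62 and 0.13 in experiment 1 and 1.30 and 0.95 in experiment 2. All 4 arrays lay above 0, with a mean of 0.75 ± 0.53 that did not pass (adjusted p = 0.0735). It passed with the experiment number as a replicate block (adjusted p = 0.00458), which takes out differences between experiments that the treatments share. Leaving out either experiment of CHX plus R1881, which changes only the pooled spread, also made it pass (adjusted p = 0.0420).

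DDIT4 fell by 3.69 ± 1.5 with CHX, which is 12.9-fold below control (adjusted p = 0.00523). It had −4.93 and −4.57 in experiment 1 and −2.93 and −2.33 in experiment 2. All 4 arrays lay below −2, and those of experiment 1 lay lower. It was the lowest of all 14547 genes in experiment 1 and ranked 20 from the lowest in experiment 2, and ranked 3 from the lowest by the mean. The experiments differed by 2.12 for DDIT4, and 0.0412% of genes had a larger difference, beside a median of 0.14 over genes.

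Set against DDIT4 within the same arrays, which removes any shift common to an array, the other 8 transcripts stood far above it. With CHX the difference from DDIT4 averaged from 4.44 for SESN2 to 5.82 for GADD45B. Their median lay 6.12 above DDIT4 in experiment 1 and 3.99 above it in experiment 2. On the 8 arrays of CHX or CHX plus R1881 against control, the lowest of the other 8 was 2.57 to 5.55 above DDIT4. That lowest transcript was SESN2 on the 4 arrays of experiment 1, and BTG1, BTG2 or ATF4 on those of experiment 2. DDIT4 and SESN2, both mTORC1 inhibitors that ATF4 induces, differed by 5.13 in experiment 1 and 3.75 in experiment 2. The pair was singled out for its roles, with the values known, so this is a description with no test.

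**Figure D2:**
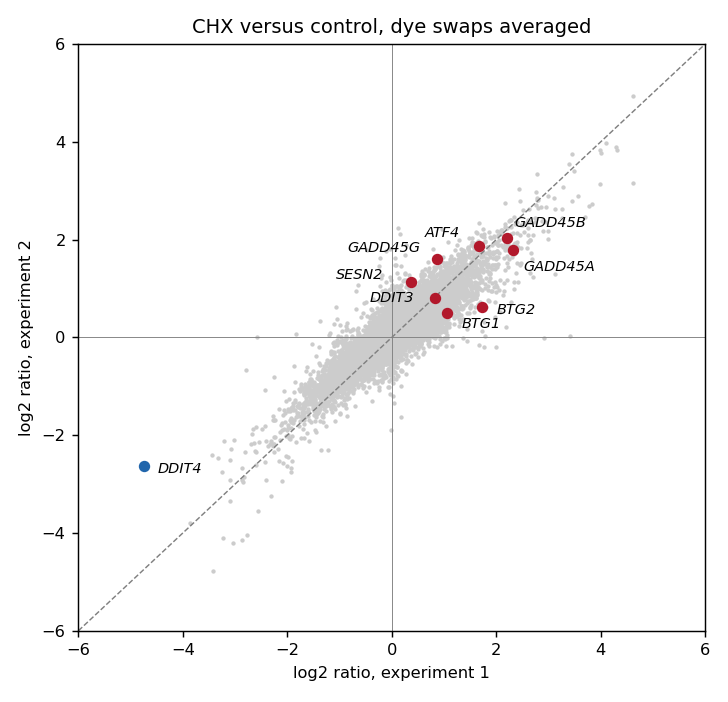
Log2 ratio of CHX over control in experiment 1 (horizontal axis) and experiment 2 (vertical axis), dye swaps averaged, with all 14547 genes in grey and the 9 transcripts in colour. The dashed line marks equal values: DDIT4 sits at −4.75 and −2.63, BTG2 lies below the line at 1.73 and 0.62, and DDIT3 lies on it at 0.82 and 0.80.

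The members parted into those that were higher in experiment 1 and those that were higher in experiment 2. In CHX versus control, experiment 1 exceeded experiment 2 by 1.11 for BTG2, 0.57 for BTG1 and 0.53 for GADD45A. It was below experiment 2 by 0.72 for GADD45G, by 0.75 for SESN2 and by 2.12 for DDIT4. DDIT3 differed by 0.02. Larger differences than that of BTG2 were found for 0.612% of genes. With CHX plus R1881 these 6 genes had the same sign of difference, for example 0.76 for BTG2, −0.90 for SESN2 and −1.77 for DDIT4 (experiment 1 minus experiment 2). ATF4 kept its sign too (−0.20 with CHX, −0.35 with CHX plus R1881). The small differences of GADD45B (0.17 and −0.04) and DDIT3 (0.02 and −0.04) turned. Across all genes such differences correlated at r = 0.564 between the 2 comparisons, which may share controls, so a shared sign is not particular to these genes. The labels give both experiments the same doses and times.

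CHX plus R1881 versus control gave nearly the same picture of the 9 transcripts. Here 6 rose, GADD45A, GADD45B, GADD45G, BTG1, ATF4 and DDIT3, and DDIT4 fell, beside a background of 37.4% of all genes called, 20.8% higher and 16.6% lower. This comparison has its own treated cultures, while CHX versus control may share its control cultures, so the likeness of the values is no independent repeat. The members' median was 0.96, beside 0.0082 over all genes.

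GADD45A and GADD45B had the highest means with dyes averaged, and ATF4 lay above GADD45G. The place of ATF4 again depended on the dye. In Cy5 it had 2.92, above GADD45A (2.27) and GADD45B (2.06), and in Cy3 0.77, below GADD45G (1.39). GADD45A had 2.27 and 2.44 in experiment 1 and 2.08 and 2.09 in experiment 2, a mean of 2.22 ± 0.19 (adjusted p = 0.000294). GADD45B had 2.28 and 2.09 in experiment 1 and 2.41 and 2.04 in experiment 2, a mean of 2.21 ± 0.03 (adjusted p = 0.000110). Neither gene had an array under 2. GADD45G had 1.26 and 1.18 in experiment 1 and 1.51 and 1.52 in experiment 2, a mean of 1.37 ± 0.21 (adjusted p = 0.00262). DDIT3 averaged 0.96 ± 0.03 (adjusted p = 0.000204) and ranged from 0.88 to 1.02 over its arrays. ATF4 averaged 1.84 ± 0.25 (adjusted p = 0.000286), with 1.04 and 0.50 in Cy3 and 2.30 and 3.54 in Cy5 in experiments 1 and 2. The dye split of ATF4 was thus present here too.

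BTG1 had 1.10 and 1.15 in experiment 1 of CHX plus R1881 and 0.32 and 0.46 in experiment 2, a mean of 0.76 ± 0.52 (adjusted p = 0.0343). BTG2 had 1.12 and 1.44 in experiment 1 and 0.31 and 0.72 in experiment 2. Its mean of 0.90 ± 0.54 did not pass (adjusted p = 0.0605), but did with the replicate block (adjusted p = 0.00903) and when either experiment of CHX was left out (adjusted p = 0.0177). SESN2 had 0.20 and 0.03 in experiment 1 and 1.23 and 0.80 in experiment 2, a mean of 0.57 ± 0.64 that did not pass (adjusted p = 0.151) but did with the replicate block (adjusted p = 0.0122). For SESN2 the arrays of experiment 1 lay near 0. Without experiment 1, BTG1 had 0.39 and did not pass (adjusted p = 0.279), nor did it without an R1881 experiment (adjusted p = 0.0740).

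DDIT4 fell by 3.45 ± 1.25 with CHX plus R1881, which is 10.9-fold below control (adjusted p = 0.00674). Its arrays had −4.47 and −4.20 in experiment 1 and −2.26 and −2.87 in experiment 2. It was again the lowest of all genes in experiment 1, and ranked 24 from the lowest in experiment 2. Without experiment 1 of CHX plus R1881 it had −2.56 and was not called (adjusted p = 0.0687). The other 8 transcripts stood above it by a median of 5.58 in experiment 1 and 3.83 in experiment 2.

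R1881 versus control asked whether androgen alone moved these transcripts. None of the 9 was called by limma, beside 0.00687% of all genes (1 gene, TMPRSS2), and 1 of the 9, DDIT3, had an unadjusted p under 0.05, as did 921 of all genes. The members' median was −0.0048 and 4 of 9 means lay above 0. The plot of the R1881 arrays shows values within 0.5 of 0 throughout.

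**Figure D3:**
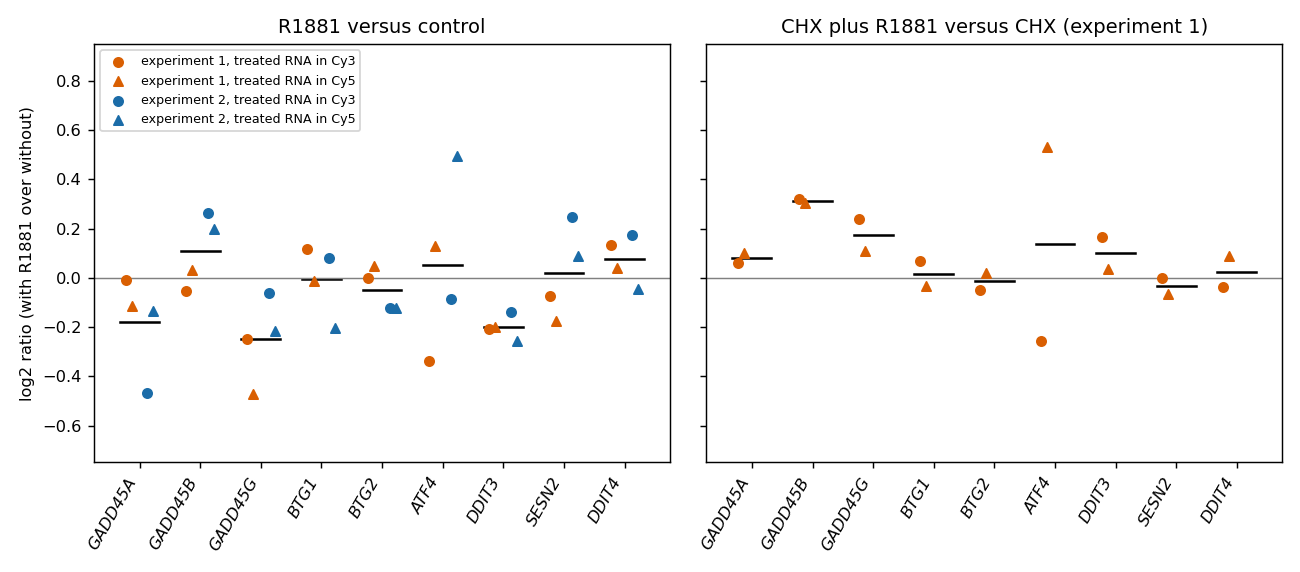
Log2 ratio (vertical axis) of each of the 9 transcripts on the 4 arrays of R1881 over control and on the 2 direct arrays of CHX plus R1881 over CHX. Points are arrays, marked by experiment and dye of the first-named RNA, and bars are means over arrays. GADD45A, GADD45G and DDIT3 lie below 0 on all 4 R1881 arrays and above 0 on both direct arrays.

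DDIT3 had −0.21 and −0.20 in experiment 1 and −0.14 and −0.26 in experiment 2 with R1881. Its mean was −0.20 ± 0.01 (95% interval −0.33 to −0.07, adjusted p = 0.560), below 0 on 4 of 4 arrays. GADD45G had −0.25 and −0.47 in experiment 1 and −0.06 and −0.21 in experiment 2, a mean of −0.25 ± 0.16 (adjusted p = 0.950). GADD45A had −0.01 and −0.11 in experiment 1 and −0.47 and −0.14 in experiment 2, a mean of −0.18 ± 0.17 (adjusted p = 0.966). These 3 transcripts lay below 0 on every array without passing the correction. GADD45B averaged 0.11 ± 0.17, BTG1 −0.0048 ± 0.08, BTG2 −0.05 ± 0.10, ATF4 0.05 ± 0.22 and SESN2 0.02 ± 0.21, each with arrays on both sides of 0. DDIT4 had 0.14 and 0.04 in experiment 1 and 0.18 and −0.04 in experiment 2, a mean of 0.08 ± 0.02 (adjusted p = 0.999). Its interval of −1.39 to 1.54 is wide because the fit pools its spread with that of the CHX experiments.

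Whether R1881 moved the 9 transcripts while protein synthesis was inhibited was read as CHX plus R1881 minus CHX. None of the 9 was called by limma (0% of all genes were, and 186 had an unadjusted p under 0.05, with 0 of the 9 among them). The means ran from −0.28 for BTG2 to 0.24 for DDIT4, both at an adjusted p of 1.00. DDIT3 had 0.15 with a 95% interval of −0.04 to 0.34. Within experiments 1 and 2, DDIT4 had 0.42 and 0.07, and BTG2 had −0.45 and −0.11, so each kept its sign. With the replicate block the 95% interval was −1.10 to 1.58 for DDIT4, against −1.83 to 2.32 without it, and −0.87 to 0.31 for BTG2, against −1.30 to 0.75. Neither was called with the block.

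The direct arrays of CHX plus R1881 over CHX hold the same question within 1 hybridisation, for experiment 1 alone and with no test. GADD45B had 0.32 and 0.30, the highest of the 9 by their mean. GADD45G had 0.24 and 0.11, DDIT3 0.17 and 0.04, and GADD45A 0.06 and 0.10 (Cy3, then Cy5). BTG2 had −0.05 and 0.02, DDIT4 −0.04 and 0.09, and ATF4 −0.26 and 0.53. For the same experiment, the difference taken through control was −0.03 for GADD45B, −0.45 for BTG2 and 0.42 for DDIT4, where the direct arrays averaged 0.31, −0.01 and 0.02. The routes thus disagreed for these 3 genes, and the direct arrays put BTG2 and DDIT4 near 0.

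The R1881 response without CHX minus that in its presence was called for 0 of the 9 transcripts by limma (0% of all genes, with 357 at an unadjusted p under 0.05). It ran from −0.38 for GADD45G to 0.23 for BTG2. DDIT3 had −0.35 and was the only one of the 9 with an unadjusted p under 0.05 (adjusted p = 1.00).

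The partners and pathways of these genes moved in both directions under CHX, as the plot of the lists shows. With R1881 against control, 0 of the 111 genes in the 6 lists below were called by limma and 11 had an unadjusted p under 0.05, with list medians from −0.04 to 0.07. Members are not counted in the lists. The counts below stand beside 20.5% of all genes that rose and 17.4% that fell with CHX, and 20.8% and 16.6% with CHX plus R1881. No list was tested as a set.

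**Figure D4:**
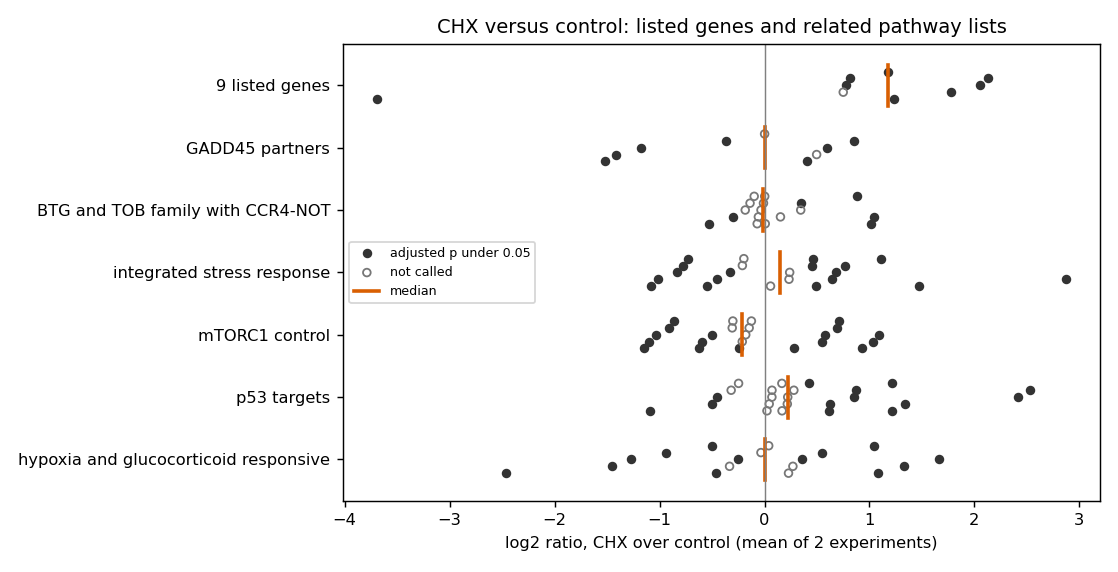
Log2 ratio of CHX over control (horizontal axis, mean of 2 experiments) for the 9 transcripts and 6 lists of related genes. Each point is a gene, filled where its adjusted p is under 0.05, and orange bars are medians: 1.18 for the 9 transcripts, where DDIT4 sits at −3.69, and −0.21 to 0.22 for the lists.

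Of 9 measured GADD45 partners, 3 rose (33.3%) and 4 fell (44.4%) with CHX (median 0.0009). The DNA clamp PCNA fell by 1.18 ± 0.03 on the log2 scale, the mitotic kinase gene CDK1 fell by 1.52 ± 0.09 and the repair endonuclease gene APEX1 fell by 1.41 ± 0.06. CDKN1A, which encodes the CDK inhibitor p21, rose by 0.85 ± 0.16 (adjusted p = 0.000834). The counts were also 3 and 4 with CHX plus R1881. Among 17 measured genes of the other BTG and TOB proteins and the deadenylase machinery, 4 rose (23.5%) and 2 fell (11.8%) with CHX (median −0.01), in CHX plus R1881 too. BTG3, a family member, rose by 1.05 ± 0.06, and CNOT10, a CCR4-NOT subunit, rose by 1.02 ± 0.03. The poly(A)-binding protein gene PABPC1 fell by 0.53 ± 0.09, and CNOT2 fell by 0.30 ± 0.04.

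The integrated stress response list split almost evenly, with 9 of 22 that rose (40.9%) and 8 that fell (36.4%) with CHX (median 0.15), and 8 and 6 with CHX plus R1881. ATF3, a stress-induced transcription factor that ATF4 activates, rose by 2.87 ± 0.35 (adjusted p = 0.000136). ATF5, a relative of ATF4, rose by 1.11 ± 0.21, and EIF2AK3, the eIF2α kinase PERK, by 0.77 ± 0.03. CEBPG, a partner of ATF4 in heterodimers, fell by 0.54 ± 0.03 (adjusted p = 0.00181). ASNS, asparagine synthetase and an ATF4 target, was named after its values were seen; it fell by 1.08 ± 0.40 (adjusted p = 0.00420), while TRIB3, another target named likewise, had 0.23 ± 0.37 (adjusted p = 0.291).

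Among 23 measured genes of mTORC1 control, 8 rose (34.8%) and 9 fell (39.1%) with CHX (median −0.21), and 7 and 10 with CHX plus R1881. MTOR itself rose by 1.09 ± 0.20 and its activator RHEB by 1.03 ± 0.15, and the GTPase gene RRAGA rose by 0.58 ± 0.02. The Ragulator subunit gene LAMTOR2 fell by 0.91 ± 0.07 (adjusted p = 0.000261). The closest relatives of 2 members, named after their values were seen, did not share the members' sizes. SESN1 fell by 0.50 ± 0.20 (adjusted p = 0.0149) and SESN3 by 0.24 ± 0.14 (adjusted p = 0.0391), where SESN2 had 0.75. DDIT4L, the paralogue of DDIT4, had −0.31 ± 0.26 (adjusted p = 0.234), where DDIT4 had −3.69.

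Of 24 measured p53 targets, 10 rose (41.7%) and 3 fell (12.5%) with CHX (median 0.22), and 11 and 3 with CHX plus R1881. PLK2, a polo-like kinase gene, rose by 2.42 ± 0.27, the death receptor genes FAS by 2.53 ± 0.51 and TNFRSF10B by 1.34 ± 0.0035, and XPC, a damage sensor of excision repair, by 1.22 ± 0.10. The 3 that fell, named after their values were seen, were TP53INP1 (by 1.09 ± 0.26), SESN1 (by 0.50 ± 0.20) and BAX (by 0.45 ± 0.01). MDM2, named likewise, had 0.02 ± 0.14 (adjusted p = 0.830). Whether p53 took part was not tested. CDKN1A and SESN1 stand in this list as well as in those above. Of 18 measured genes that respond to hypoxia or glucocorticoids, as DDIT4 does, 6 rose (33.3%) and 7 fell (38.9%) with CHX (median 0.0031), and 7 and 5 with CHX plus R1881. The hypoxia-induced genes NDRG1, BNIP3 and ANKRD37 fell by 2.46, by 1.46 and by 0.94, and EPAS1, which encodes HIF-2α, rose by 1.04. Other genes of the list, named after their values were seen, did not fall. ADM rose by 0.55, PER1 by 1.08 and TXNIP by 1.66, and VEGFA had 0.27 and was not called. NDRG1 was the lowest of this list and still lay above DDIT4.

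The genes most like the members in pattern were found by Euclidean distance over the 6 log ratios, 2 experiments of each treatment against control. These log ratios may share controls, which the labels do not state. For DDIT4 the nearest, RLN1, was 1.74 away, PCLAF 1.91 and ADAM2 1.96. Few genes lie as low as DDIT4 or differ as much between experiments, so larger distances are built into this measure. RLN1 had means of −3.84 with CHX and −3.15 with CHX plus R1881, where DDIT4 had −3.69 and −3.45. GADD45A had TCF12 at 0.20, SC5D at 0.31 and AOPEP at 0.33. GADD45B had DUSP8 at 0.21, KDM5B at 0.28 and PARD3 at 0.30, and BTG2 had GCC2 at 0.31, CPEB2 at 0.31 and SOCS1 at 0.33. ATF4 had MEPE at 0.22, TRIT1 at 0.23 and C6orf52 at 0.26, over values in which its dyes were averaged.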

How the data were processed

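Levels of RNA were measured on 14 two-colour arrays of 27648 probes. The authors deposited a log ratio for each probe and array, and it was read as log2. Its base, the image analysis and any normalization are not given in the sources used here. If the base were 10 or e, log2 values would be larger by a constant factor. The arrays hold no intensities, so signal over background is unknown, and the number of experiments limits precision.

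Every value was multiplied by −1. Probes were named through RefSeq by accession (14718), by current symbol (1808), by older symbol (1029) or as the platform gives them (156), which left 9937 unnamed. Probes of a gene were averaged (2057 of 14547 genes). The arrays of a dye swap share their extracts and were averaged, so n = 2. limma 3.58.1 in R 4.3.3 fitted 6 log ratios with 1 term per treatment (3 residual and 2.57 prior degrees of freedom). It called genes where the p, adjusted by Benjamini-Hochberg over all 14547 genes, was under 0.05. A run on simulated data had few changed genes and independent experiments, unlike these data, and so checked only the code. The treatments share the experiment numbers of the labels. Deviations of same-numbered experiments from their treatment means correlated across genes at r = 0.292 (R1881 and CHX), 0.166 (R1881 and CHX plus R1881) and 0.564 (CHX and CHX plus R1881), and the numbers were taken to pair the experiments. A fit with the number as a replicate block is given where it changes a call. The block takes out differences between experiments that the treatments share, possibly through their controls. Its p therefore does not measure the full spread of a response against control between experiments. The 2 direct arrays have no test. Alternatives left out a replicate or used 1 dye orientation, other normalizations, other fits or the direct arrays.

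The members and the lists were chosen with earlier results of these data known. The text names all members, up to 4 genes with the smallest p with CHX from each list, and 3 nearest genes for each of 5 members. Promoter sequences are RefSeq's (GRCh38.p14).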

Additional observations from a re-analysis of the deposited data

Results flagged for a closer look

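GADD45A, GADD45G and DDIT3 lay below 0 on all 4 arrays of R1881 over control, but above 0 on both direct arrays of CHX plus R1881 over CHX. The mean with R1881 over control minus the mean on the direct arrays was −0.26 for GADD45A, −0.42 for GADD45G and −0.30 for DDIT3. This difference was not tested, since the direct arrays are 1 dye swap of experiment 1. The share of all genes with such a pattern was not counted, and the 4 R1881 arrays come from 2 experiments. Across probes the 2 direct arrays correlated at r = −0.0427, so the sign of a small value on them carries little weight. Some values lay near 0, such as −0.01 for GADD45A with R1881 and 0.035 for DDIT3 on a direct array.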

How the results depend on the processing

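Over 16 alternatives, all 288 member values with CHX or CHX plus R1881 against control kept their sign. This was largely fixed in advance. Several alternatives change only the spread and leave the value as it was. All 4 arrays of each member lay on the same side of 0 in each comparison, so leaving out an experiment or a dye orientation could not turn a sign. The number of members called was 6 to 9 with CHX and 5 to 9 with CHX plus R1881, and 0 in the other contrasts. The median of the other 8 over DDIT4 was 3.99 to 6.12 when an experiment was left out. SESN2 was also called with CHX from the arrays with treated RNA in Cy3 (adjusted p = 0.0364) and with the direct arrays added (0.0283). In the fit with the replicate block 9 of 9 members were called with CHX and 9 of 9 with CHX plus R1881. That fit leaves out differences between experiments that the treatments share, so its added calls do not mean that the experiments lay closer together. The block changed no call but those of SESN2 and BTG2 given with the results. With CHX alone in the fit, BTG1 and BTG2 did not pass (adjusted p = 0.0511 and 0.0732).

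Signs turned only in R1881 contrasts, where no member was called, and the cause was not tested. In R1881 versus control, BTG1 had 0.10 and ATF4 −0.21 with treated RNA in Cy3 alone, SESN2 −0.0445 and DDIT4 −0.0013 in Cy5 alone, BTG1 0.0068 and SESN2 −0.0035 after scale normalization, and BTG1 0.0056 and SESN2 −0.0016 after quantile normalization. When a replicate was left out, GADD45B ran from −0.0124 to 0.23, BTG1 from −0.062 to 0.0525, BTG2 from −0.12 to 0.0243, ATF4 from −0.10 to 0.21 and SESN2 from −0.12 to 0.17. In the presence of CHX, DDIT4 had −0.0832 with treated RNA in Cy5 alone. When a replicate was left out, DDIT4 ran from −0.82 to 1.30 and BTG2 from −0.83 to 0.27. Leaving out 1 experiment of CHX or of CHX plus R1881 sets unmatched experiments against each other. Matched within experiments 1 and 2, DDIT4 had 0.42 and 0.07 and BTG2 −0.45 and −0.11, with no turn of sign. The BTG2 difference between the R1881 responses ran from −0.32 to 0.78 when a replicate was left out. Matched within experiments 1 and 2, it was 0.47 and −0.02.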
